A study of Mus musculus with 26 samples.

Results

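Endothelium came from 2 places in tumour-bearing mice, a J558L tumour whose cells release interferon gamma (IFNγ) when induced, and the kidney. For each gene, the change after 24 h of induction was taken in tumour endothelium and in kidney endothelium, and the kidney response was subtracted from the tumour response. This difference of responses used 11 of the study's 26 arrays. Gene values were averages over all probe sets of the array that carried 1 gene symbol, and genes past the test were sorted into those that responded in 1 tissue and those whose responses ran in opposite directions.

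J558L is a mouse plasmacytoma line, a tumour of antibody-producing cells, here carrying an inducible gene for an IFNγ-GFP fusion protein. The tumours grew to about 1 cm in female Rag-/- mice aged 4-6 months, which lack mature T and B cells and have the IFNγ receptor on all cells. Endothelium was sorted from digested tissue as cells carrying both CD31 and CD146. The groups were tumour endothelium after 24 h of induction (3 arrays) and without induction (0 h, 2 arrays), and kidney endothelium of J558L-bearing mice after 24 h (3 arrays) and at 0 h (3 arrays). The labels number the arrays and do not say whether each came from its own animal, so p-values measure only the spread between arrays. That spread was estimated for each gene from all 26 arrays of the study, those of the other tumours included. Where 1 array weighs on a result, the fit without it is given.

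IFNγ binds a receptor of paired chains on the cell surface and acts through Janus kinases on transcription factors that bind GAS elements in DNA. Factors made or activated in this response, interferon regulatory factors among them, act on a second class of elements called ISRE. Vessels of different organs carry different endothelial programmes, and endothelium of growing tumours divides and sprouts more than that of a resting organ.

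The table used here covered part of the array, and 5109 genes had a probe set of their own, nearly all on chromosomes 1, 10, 11, 12 and 13. Of these, 2587 had an average above the array's 50th percentile in at least 2 of the 11 arrays and were tested. Array medians were 6.42 to 6.46 in tumour and 6.33 to 6.40 in kidney on the log2 scale, and the tissues appear to have been normalized separately, so that levels were never compared between tissues. A response is a difference of log2 values, 24 h minus 0 h, given ± standard error, so that 1 on this scale is a 2-fold change. Adjusted p-values are from limma with the Benjamini-Hochberg correction over the 2587 genes, and a gene is said to rise, fall or differ only where that value was below 0.05. The number of arrays limits the precision, with a median standard error of 0.227 for the tumour response, 0.203 for the kidney response and 0.305 for their difference. The endothelial marker genes measured (Pecam1, Icam2, Sele, Selp and Ramp2) lay above the array medians in all 4 groups, and 10 of 12 leukocyte markers lay below them. The other 2, Cd68 and Fcer1g, lay above them in all groups. Of 8 pericyte and fibroblast markers 4 lay above the medians in kidney at 0 h and 3 in each other group. Of 5 kidney epithelial markers 2, Atp1b1 and Fmo1, lay above them in kidney at both times and none in tumour.

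In tumour endothelium 103 genes changed, 3.98% of those tested, with 61 higher (2.36%) and 42 lower (1.62%). In kidney endothelium 284 changed, 11% of those tested, with 147 higher (5.68%) and 137 lower (5.30%). The difference of responses passed for 16 genes (0.618%). Of these, 12 had the higher response in tumour (0.464%) and 4 the lower (0.155%). At an unadjusted p below 0.05 the difference had 265 genes. Across the 2587 genes the 2 responses had a Pearson correlation of 0.506 and a Spearman correlation of 0.387. Genes are not independent replicates, and the responses share no array. The median response was -0.03 in both tissues.

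**Figure D1:**
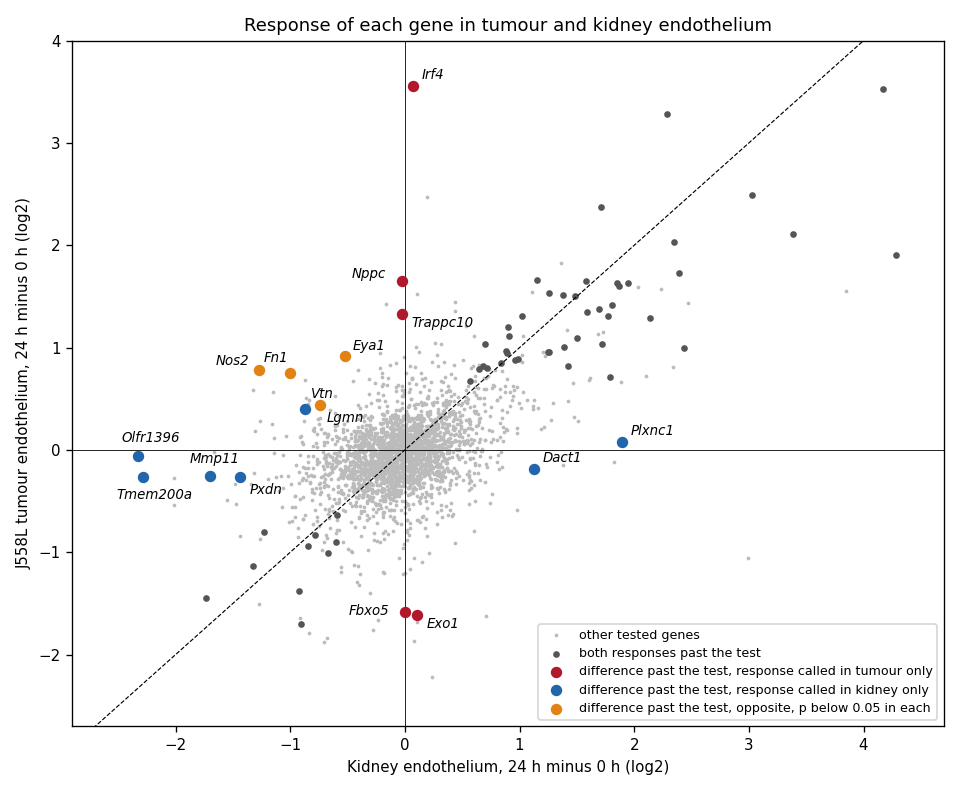
The response of each of the 2587 tested genes in tumour endothelium (vertical axis) against kidney endothelium (horizontal axis), each as 24 h minus 0 h on the log2 scale, with the dashed line marking equal responses. The 16 genes whose difference passed the test lie away from that line, Irf4 farthest at 3.55 in tumour and 0.07 in kidney, while the 52 genes past the test in both tissues all lie to the upper right or lower left of the zero lines.

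Genes past the test in both tissues numbered 52, which is 50.5% of those changed in tumour and 18.3% of those changed in kidney. All 52 moved in the same direction, 42 up and 10 down, with the larger response in kidney for 27 and in tumour for 25. None of the 52 passed the test of the difference. Ifi205, an interferon-inducible gene of the Ifi200 family, read 10.31, 10.54 and 10.30 in tumour at 24 h, against 6.59 and 7.13 at 0 h. In kidney Ifi205 read 10.45, 10.81 and 10.40 at 24 h, against 6.56, 5.89 and 6.70 at 0 h. The 24 h arrays lay far above the 0 h arrays in both tissues, and the responses of 3.52 and 4.17 differed by -0.65 ± 0.60 (adjusted p = 0.796). Serpinb9, which encodes an inhibitor of granzyme B, rose by 1.5 in tumour and 1.49 in kidney. The difference for Serpinb9 was 0.01 with a 95% confidence interval from -0.71 to 0.74.

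The genes with a called difference fell into 3 kinds. For 5 of the 16 the response passed the test in tumour, while the kidney response lay within 0.5 of 0 and had an unadjusted p of at least 0.05. For 7 the same held with the tissues exchanged. The other 4 had responses of opposite sign with an unadjusted p below 0.05 in each tissue. Signs alone were opposite in 10 of the 16, since a response near 0 takes either sign. No gene passed the adjusted test in both tissues with opposite signs (0 of 2587), so that no opposite response rests on a called change in each tissue.

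Irf4, an interferon regulatory factor known from plasma cells and activated lymphocytes, had the largest difference. It read 8.45, 8.13 and 8.41 in tumour endothelium at 24 h, against 4.60 and 4.95 at 0 h. In kidney endothelium it read 4.82, 4.72 and 4.28 at 24 h, against 4.60, 4.56 and 4.43 at 0 h. Only the 24 h tumour arrays stood apart, while the kidney groups overlapped and lay below the array medians together with tumour at 0 h. The tumour response was 3.55 ± 0.38, the kidney response 0.07 ± 0.34, and the difference 3.48 ± 0.51 (limma, adjusted p = 9.69e-04). All 11 probe sets of Irf4 gave a positive difference, and the call held in each of the 11 fits without 1 array. Of the 23 alternative fits that tested Irf4, 21 called it, and the adjusted p reached 0.184. Since levels below the array median may be background, the size of the rise is uncertain, and a small response in kidney may not have been readable. Irf4 entered the test through the 24 h tumour arrays alone, so the filter favoured a rise there.

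Irf4 is also a marker of plasma cells, which J558L cells derive from, and the other tested markers of that list did not pass the test in tumour endothelium. Sdc1 changed there by 0.03, Xbp1 by 0.08 and Prdm1 by -0.16. These markers lay above the array medians in tumour, where they averaged 6.78, 11.06 and 9.49 at 24 h and 6.75, 10.98 and 9.65 at 0 h. They lay above the medians in kidney as well. Ighm averaged 5.18 at 24 h and 5.19 at 0 h in tumour, and Derl3 averaged 5.25 and 5.34, all below the array medians. Neither was tested. The summed level of the 6 measured plasma cell markers, Irf4 included, was 11.68 to 11.74 at 24 h and 11.55 to 11.59 at 0 h in tumour, on the log2 scale. The sum holds the rise of Irf4 itself, so the other markers are to be read from their own values above. Bulk values cannot tell a change in the number of cells of a type from a change in RNA per cell.

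The other genes with a response in tumour alone were 2 that rose and 2 that fell. Nppc, which encodes the precursor of C-type natriuretic peptide, a vasodilator released by endothelium, read 8.10, 8.14 and 8.04 in tumour at 24 h, against 6.14 and 6.75 at 0 h. In kidney it read 6.01, 5.91 and 6.28 at 24 h, against 5.98, 5.99 and 6.32 at 0 h. The tumour groups were apart and the kidney groups overlapped below the array medians. Nppc had a difference of 1.68 ± 0.33 (adjusted p = 0.0256), but its 4 probe sets did not move alike. A single probe set gave a difference of 5.97, and the others gave 0.23, 0.67 and, at the brightest, -0.16. The median of the 4 was 0.45, so the call rests largely on 1 probe set. On average Nppc was above the array medians in tumour at 24 h alone, so the filter favoured a rise there. The call held in 5 of the 11 fits without 1 array and reached adjusted p = 0.209 without tumour 0 h replicate 1.

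Trappc10, a subunit of the TRAPP complexes of vesicle transport, was above the array medians in all groups, though 1 tumour array at 0 h lay close to its median. It read 8.13, 8.41 and 8.46 in tumour at 24 h, against 6.67 and 7.33 at 0 h. In kidney it read 8.80, 8.83 and 8.77 at 24 h, against 8.59, 9.03 and 8.86 at 0 h. Trappc10 rose in tumour by 1.33 ± 0.22 and changed by -0.03 ± 0.19 in kidney, where the 24 h arrays fell inside the range of the 0 h arrays. The difference was 1.36 ± 0.29 (adjusted p = 0.0279), positive in 22 of 23 probe sets. Its call held in 3 of 11 fits without 1 array, with adjusted p up to 0.344 without tumour 0 h replicate 1.

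Fbxo5, whose product holds back the anaphase-promoting complex until mitosis, fell in tumour. It read 5.37, 5.46 and 5.20 in tumour at 24 h, against 6.93 and 6.91 at 0 h, and 6.80, 6.70 and 6.23 in kidney at 24 h, against 6.50, 6.80 and 6.43 at 0 h. The tumour arrays at 24 h lay below those at 0 h and below their array medians, and the kidney groups overlapped. The tumour response was -1.58 ± 0.21, the kidney response 0.00 ± 0.19 and the difference -1.58 ± 0.28 (adjusted p = 0.0086), negative in all 9 probe sets. The call held in 10 of 11 fits without 1 array and had adjusted p = 0.0543 without tumour 0 h replicate 1. Of the 24 alternative fits that tested Fbxo5, 21 called it, and the adjusted p reached 0.511.

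Exo1, an exonuclease of mismatch repair and DNA end resection, read 5.62, 5.50 and 5.23 in tumour at 24 h, against 7.38 and 6.74 at 0 h. Kidney endothelium gave 4.81, 4.98 and 5.45 at 24 h, against 4.83, 5.03 and 5.06 at 0 h. Both kidney groups lay below the array medians, where a fall may not have been readable. Only the tumour arrays at 0 h were above the medians, so the filter favoured a fall there. The difference for Exo1 was -1.72 ± 0.39 (adjusted p = 0.0389), negative in 15 of 16 probe sets. It was called in 2 of 11 fits without 1 array, with adjusted p up to 0.363 without tumour 0 h replicate 1.

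**Figure D2:**
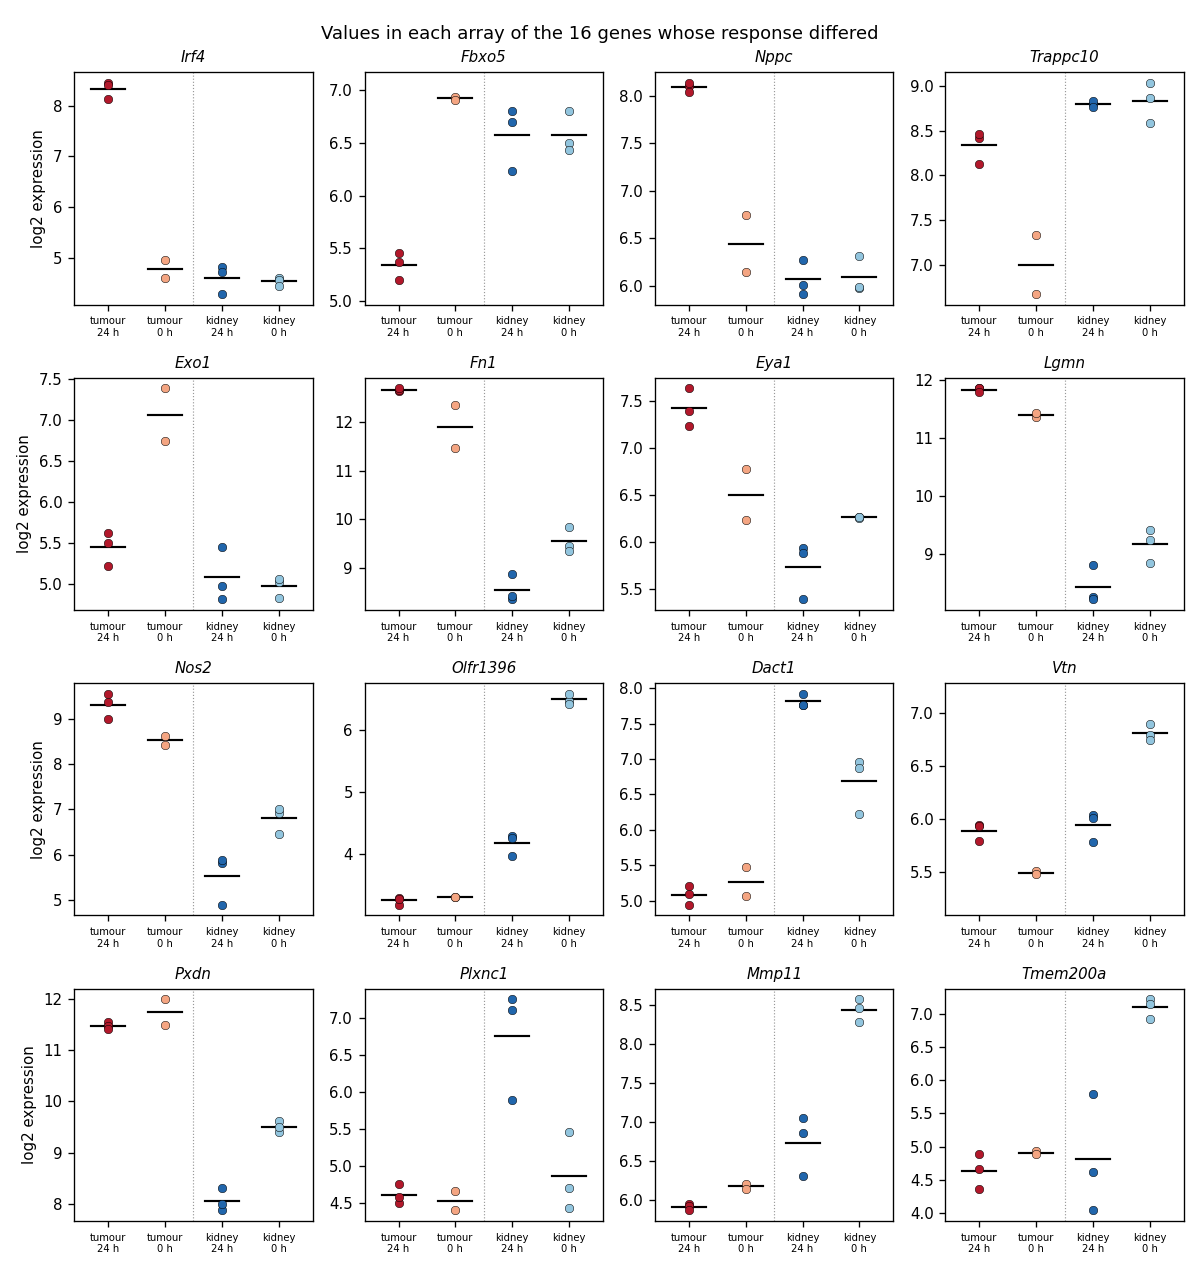
The log2 value in each of the 11 arrays (points) and the group mean (bar) for the 16 genes whose response differed, with tumour groups left of the dotted line and kidney groups right of it. Irf4 is high in the 3 tumour arrays at 24 h alone, whereas Fn1, Lgmn, Eya1 and Nos2 are higher at 24 h in tumour and lower at 24 h in kidney. Levels are to be read within a tissue.

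Responses of opposite sign were led by Fn1, which encodes fibronectin, a matrix protein that endothelial cells bind through integrins. Fn1 read 12.63, 12.66 and 12.70 in tumour at 24 h, against 11.48 and 12.35 at 0 h. In kidney it read 8.88, 8.36 and 8.43 at 24 h, against 9.46, 9.35 and 9.85 at 0 h. The 24 h arrays were above the 0 h arrays in tumour and below them in kidney, with no overlap in either tissue. The tumour response was 0.75 ± 0.25 and did not pass the test (adjusted p = 0.116), the kidney response was -1.0 ± 0.23 (adjusted p = 0.0049), and the difference was 1.75 ± 0.34 (adjusted p = 0.0240). Probe sets of 1 transcript are not replicates, but all 41 gave a positive tumour response and a positive difference, and 40 gave a negative kidney response. The call held in 6 of 11 fits without 1 array, and the 0 h tumour arrays lay far apart. Without tumour 0 h replicate 1 it was 0.32, the difference 1.32 and its adjusted p 0.209. Without replicate 2 the tumour response was 1.19 with adjusted p = 0.0397, which made Fn1 the 1 gene past the test in opposite directions in that fit.

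Lgmn encodes legumain, a protease of lysosomes. In tumour it read 11.85, 11.85 and 11.79 at 24 h, against 11.36 and 11.43 at 0 h, and in kidney 8.82, 8.27 and 8.22 at 24 h, against 8.86, 9.25 and 9.43 at 0 h. As for Fn1 the groups did not overlap in either tissue, though in kidney the nearest arrays were 8.82 at 24 h and 8.86 at 0 h. The responses were 0.44 ± 0.19 in tumour (adjusted p = 0.253) and -0.74 ± 0.17 in kidney (adjusted p = 0.0048). Their difference of 1.18 ± 0.25 (adjusted p = 0.0279) was positive in all 17 probe sets, with all 17 up in tumour and 16 down in kidney. It was called in 2 of 11 fits without 1 array, with adjusted p up to 0.209 without tumour 0 h replicate 1.

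Nos2 encodes the inducible nitric oxide synthase, in mouse macrophages a known target of IFNγ. It read 9.55, 9.37 and 8.99 in tumour at 24 h, against 8.42 and 8.63 at 0 h. In kidney it read 5.82, 4.89 and 5.87 at 24 h, against 6.46, 6.93 and 7.01 at 0 h. The groups were again apart in both tissues, with the 24 h kidney arrays below the array medians. The responses of 0.78 ± 0.34 in tumour (adjusted p = 0.270) and -1.27 ± 0.30 in kidney (adjusted p = 0.0076) gave a difference of 2.05 ± 0.46 (adjusted p = 0.0353), positive in 21 of 23 probe sets. The difference was called in 3 of 11 fits without 1 array, with adjusted p up to 0.228 without tumour 0 h replicate 1.

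Eya1, a transcriptional coactivator and phosphatase needed for kidney development, was the 1 gene of the 4 that passed in tumour and not in kidney. It read 7.39, 7.24 and 7.63 in tumour at 24 h, against 6.77 and 6.24 at 0 h, and 5.94, 5.88 and 5.39 in kidney at 24 h, against 6.27, 6.26 and 6.26 at 0 h. Groups did not overlap in either tissue, but all kidney values lay below the array medians. The tumour response was 0.91 ± 0.22 (adjusted p = 0.0203), the kidney response -0.53 ± 0.20 (adjusted p = 0.0931) and the difference 1.44 ± 0.30 (adjusted p = 0.0279). The call held in 4 of 11 fits without 1 array, with adjusted p up to 0.172 without tumour 0 h replicate 2.

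**Figure D3:**
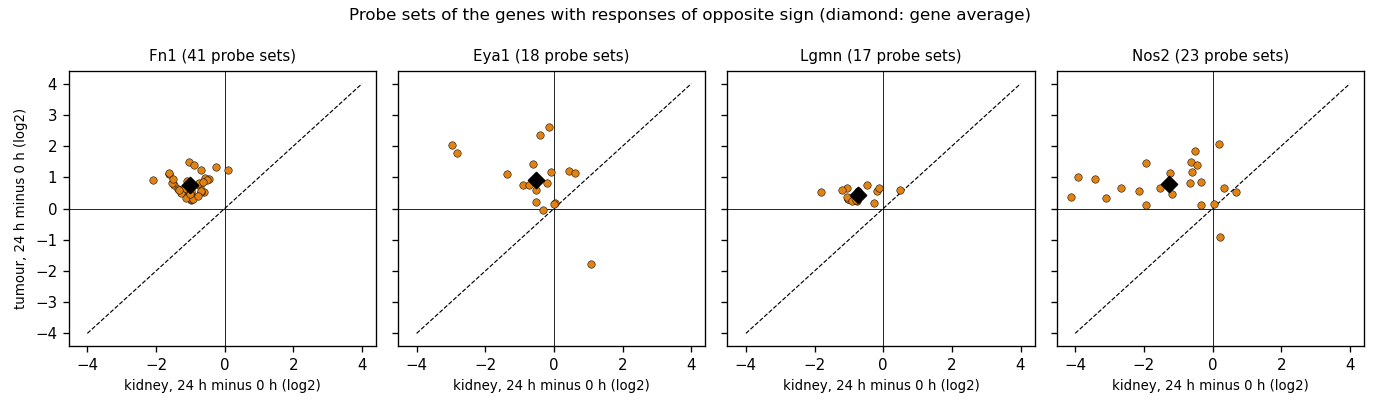
Each point is a probe set of a gene whose responses had opposite signs, with its response in tumour (vertical axis) against kidney (horizontal axis), 24 h minus 0 h on the log2 scale. Most points lie to the upper left of the zero lines, higher at 24 h in tumour and lower in kidney, as all but 1 of the 41 probe sets of Fn1 do. The diamond is the gene average and the dashed line marks equal responses.

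At an unadjusted p below 0.05 in both tissues there were 180 genes, of which 174 moved the same way and 6 (0.232% of those tested) in opposite directions. These 6 were Fn1, Eya1, Lgmn, Nos2 and Cygb, which were higher in tumour and lower in kidney, and Ltv1, which ran the other way. Cygb, the gene of the haem protein cytoglobin, changed by 0.68 in tumour and -0.87 in kidney (difference 1.55, adjusted p = 0.0827). Ltv1, a ribosome biogenesis factor, changed by -0.52 and 0.75 (difference -1.26, adjusted p = 0.0700). Without regard to any p, the arrays of 24 h and 0 h did not overlap in tumour for 1071 genes (41.4%) and in kidney for 780 (30.2%). They did so in both tissues with opposite directions for 53 genes (2.05%), so that groups without overlap are common and carry little weight for a single gene.

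Kidney endothelium alone responded in 7 of the 16 genes, 5 that fell and 2 that rose. In 6 of these 7 both tumour groups lay below the array medians, where a fall may not have been readable and no rise passed the test. For these the difference does not show that tumour endothelium failed to respond. Olfr1396, Tmem200a and Vtn were above the medians in kidney at 0 h alone, and Plxnc1 in kidney at 24 h alone. They entered the test through the group where they were high, so the filter favoured a kidney change in them. Of the 7 only Pxdn was above the medians throughout. Pxdn encodes peroxidasin, which cross-links collagen IV in basement membranes, and read 11.54, 11.47 and 11.40 in tumour at 24 h, against 11.48 and 11.99 at 0 h. In kidney it read 7.87, 8.0 and 8.32 at 24 h, against 9.41, 9.61 and 9.49 at 0 h. The tumour groups overlapped and the kidney groups were more than 1 log2 unit apart. The kidney response was -1.44 ± 0.17 (adjusted p = 5.09e-06), the tumour response -0.27 ± 0.19 and the difference 1.17 ± 0.25 (adjusted p = 0.0302), positive in all 21 probe sets. The tumour response was -0.52 without tumour 0 h replicate 1 and -0.01 without replicate 2.

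Mmp11, a matrix metalloproteinase known as stromelysin-3, read 6.85, 6.30 and 7.04 in kidney at 24 h, against 8.57, 8.45 and 8.28 at 0 h, and between 5.86 and 6.21 in all tumour arrays. It fell by 1.70 on the log2 scale in kidney, and its difference of 1.44 ± 0.33 had adjusted p = 0.0395. Vtn, which encodes the adhesive glycoprotein vitronectin, read 6.04, 6.01 and 5.78 in kidney at 24 h, against 6.90, 6.80 and 6.75 at 0 h. In tumour Vtn read 5.94, 5.79 and 5.93 at 24 h, against 5.51 and 5.48 at 0 h, a response of 0.40 with an unadjusted p of 0.058. Its difference was 1.27 ± 0.27 (adjusted p = 0.0279), positive in 8 of 10 probe sets, but -0.08 at the brightest probe set. These matrix genes were called in at most 3 of 11 fits without 1 array (Mmp11 in 1, Vtn and Pxdn in 3), with adjusted p up to 0.209, 0.176 and 0.344 without tumour 0 h replicate 1.

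Olfr1396, an olfactory receptor gene, read 4.29, 4.25 and 3.97 in kidney at 24 h, against 6.48, 6.43 and 6.59 at 0 h, and between 3.18 and 3.31 in all tumour arrays. It had the smallest adjusted p of the difference, 3.64e-07 for 2.27 ± 0.20, and kept its call in all 11 fits without 1 array. The tumour values lay far below the array medians, and 2 of its 3 probe sets were lower in kidney at 24 h. Tmem200a, a gene of a transmembrane protein measured by 1 probe set, read 4.62, 5.79 and 4.04 in kidney at 24 h, against 7.22, 6.92 and 7.16 at 0 h, and 4.36 to 4.93 in tumour. Its difference of 2.01 ± 0.47 (adjusted p = 0.0466) was called in 1 of 11 fits without 1 array.

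The genes that rose in kidney alone were Plxnc1 and Dact1. Plxnc1, which encodes a plexin that binds semaphorin 7A, read 7.25, 7.11 and 5.89 in kidney at 24 h, against 5.45, 4.42 and 4.69 at 0 h. Tumour arrays ranged from 4.40 to 4.75, below the array medians. The difference for Plxnc1 was -1.81 ± 0.40 (adjusted p = 0.0353), negative in 24 of 26 probe sets, yet 0.43 at the brightest. Dact1, an inhibitor of Wnt signalling that binds Dishevelled, read 7.77, 7.76 and 7.92 in kidney at 24 h, against 6.23, 6.96 and 6.88 at 0 h, and 4.94 to 5.47 in tumour. Its difference of -1.32 ± 0.27 (adjusted p = 0.0264) was called in 6 of 11 fits without 1 array, and that of Plxnc1 in 2 of 11. The highest adjusted p was 0.160 for Dact1, without tumour 0 h replicate 2, and 0.176 for Plxnc1, without tumour 0 h replicate 1.

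How many of the 16 stayed called depended on the array left out. Without tumour 24 h replicate 2 or 3 the same 3 genes were called, Irf4, Olfr1396 and Fbxo5. The count was 4 without tumour 0 h replicate 1 (Irf4, Olfr1396, Dact1 and Eya1), without kidney 0 h replicate 3 (Irf4, Olfr1396, Fbxo5 and Dact1) and without kidney 24 h replicate 2 (Irf4, Olfr1396, Fbxo5 and Tmem200a). It was 6 without tumour 24 h replicate 1 and 8 without tumour 0 h replicate 2, all of them among the 16. Without 1 of the other 4 kidney arrays 11 to 16 genes were called, 8 to 13 of them among the 16. The tumour response was more exposed than the kidney response. Leaving out tumour 0 h replicate 1 or 2 reduced its 103 genes to 16 or 41, and leaving out 24 h replicate 1, 2 or 3 to 51, 50 or 48. The kidney response fell to 172 of 284 genes without kidney 24 h replicate 2.

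When a gene had to lie above the array median in at least 2 arrays of each tissue, 2158 genes were tested and 5 of the 16 passed: Fbxo5, Fn1, Lgmn, Pxdn and Trappc10. This alternative was chosen after the data were seen. It leaves out genes that are read in 1 tissue alone, among them Irf4, and it is the comparison in which a response could have been read on both sides. The adjusted p was 0.0180 for Fbxo5, 0.0343 for Fn1 and 0.0484 for Lgmn, Pxdn and Trappc10. Nos2 was tested too and lost its call, with a difference of 2.05 and adjusted p = 0.0561. The other 10 of the 16 were not tested under this filter.

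The 5 genes just outside the threshold, Stxbp5, Batf3, Ltv1, Calhm6 and Ptprk, all had negative differences. Stxbp5 encodes tomosyn, a regulator of vesicle fusion, and read 9.25, 9.26 and 9.20 in tumour at 24 h, against 8.56 and 8.48 at 0 h. In kidney it read 9.47, 9.54 and 9.30 at 24 h, against 7.50, 7.88 and 7.56 at 0 h. Both rises passed the test, 0.72 in tumour and 1.79 in kidney, and the difference of -1.07 ± 0.26 had adjusted p = 0.0542. Batf3, a transcription factor of the AP-1 family known from dendritic cells, rose by 1.00 in tumour and by 2.44 in kidney, with a difference of -1.44 ± 0.35 (adjusted p = 0.0596). Calhm6, of the calcium homeostasis modulator family, stood at 0.81 in tumour, not past the test, and rose by 2.34 in kidney (difference -1.53, adjusted p = 0.0746). Serpina3f, a gene of a serine protease inhibitor, rose by 1.90 and 4.28. Its difference of -2.38 ± 0.65 (adjusted p = 0.122) was large, and its arrays at 0 h ranged from 8.96 to 9.24 in tumour and from 5.82 to 7.33 in kidney.

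Some genes passed the test in tumour and not in kidney, or the reverse, and missed the test of the difference, so that no difference between the tissues was shown for them. Sele, the gene of E-selectin, by which vessels capture leukocytes, read 8.07, 8.08 and 8.61 in tumour at 24 h, against 10.11 and 10.13 at 0 h. In kidney Sele read 10.37, 10.09 and 9.67 at 24 h, against 9.32, 10.50 and 10.08 at 0 h. It fell by 1.86 in tumour (adjusted p = 0.0204), where the groups were far apart, and changed by 0.08 in kidney, where they overlapped. The difference was -1.94 ± 0.61 (adjusted p = 0.199). Tnfsf18, which encodes the ligand of the T cell receptor GITR, rose by 2.47 in tumour and changed by 0.20 in kidney (difference 2.27 ± 0.63, adjusted p = 0.132). Il18rap, an IL-18 receptor chain, rose by 1.53 in tumour and changed by 0.11 in kidney (difference 1.42 ± 0.47, adjusted p = 0.237). For both genes the kidney groups were below the array medians. Car4, a carbonic anhydrase of capillary endothelium, changed by -0.02 in tumour, where it read 11.01 to 11.35 in all arrays, and fell by 1.67 on the log2 scale in kidney (difference 1.65 ± 0.53, adjusted p = 0.219).

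Gene lists are described by their counts and medians beside those of all 2587 genes, whose median difference was -0.01, with 1270 positive and 1317 negative. Of all 2587 genes 2.36% rose and 1.62% fell in tumour, and 5.68% rose and 5.30% fell in kidney. The median response of all genes was -0.03 in both tissues. Of the 5 interferon-inducible GTPases tested, which act against intracellular pathogens, 2 rose in tumour (Irgm1 by 1.11 and Gm5431 by 2.03) and all 5 in kidney. Their median response was 1.14 in tumour and 1.69 in kidney, and none had a called difference, with a median of -0.32. Gm12250 read 12.07, 11.94 and 12.09 in tumour at 24 h, against 10.57 and 10.35 at 0 h, and 12.16, 11.97 and 12.13 in kidney at 24 h, against 9.89, 9.37 and 10.30 at 0 h. It rose in kidney by 2.23 and stood at 1.57 in tumour (adjusted p = 0.0826), and in both tissues the groups were more than 1 log2 unit apart.

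Of 10 Ifi200 family genes tested, whose proteins include sensors of DNA, 7 rose in tumour and 10 in kidney. Median responses were 1.49 and 1.75. The difference was negative for 8 of 10, with a median of -0.52, and called for none. Ifi209 was the farthest apart, at 1.55 in tumour (not past the test) and 3.85 in kidney, a difference of -2.30 ± 0.85 (adjusted p = 0.345). Genes of this family are alike in sequence, so cross-hybridisation between them cannot be told apart from their own signal. Of 6 Schlafen genes 1 rose in tumour (Slfn5, by 0.68) and 4 in kidney, with Slfn9 at -0.12 in tumour and 1.82 in kidney (difference -1.94, adjusted p = 0.174). Of 7 antiviral interferon-stimulated genes 1 rose and 1 fell in tumour and 5 rose and 1 fell in kidney. Rsad2, the gene of the antiviral enzyme viperin, rose in both, by 1.04 and 0.70, and Ifi27 fell in both, by 0.90 and 0.60 on the log2 scale.

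Among 10 genes of the interferon receptor and its signalling, 2 rose in tumour, Irf4 and the STAT gene Stat5b (0.75), and none in kidney. Irf4 was the 1 gene of that list with a called difference. Irf1, an interferon regulatory factor induced early by IFNγ, read 10.70, 10.45 and 10.70 in tumour at 24 h, against 9.67 and 9.92 at 0 h, and 10.46, 10.71 and 10.61 in kidney at 24 h, against 10.14, 9.98 and 9.89 at 0 h. The arrays did not overlap in either tissue, yet the responses of 0.82 (adjusted p = 0.089) and 0.59 (adjusted p = 0.112) missed the test, and they differed by 0.23. Ifngr1, the receptor chain that binds IFNγ, changed by -0.21 in tumour and -0.29 in kidney, neither past the test. Of 6 chemokine genes none changed in tumour and 1 rose in kidney, Ccl5 by 1.22.

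Among genes of DNA replication and mitosis 2 had a called difference, Exo1 and Fbxo5. Of 12 DNA replication genes tested, 6 fell in tumour (Exo1, Prim1, Mcm3, Mcm6, Rrm2 and Nucks1) and none changed in kidney. The median response was -0.94 in tumour and -0.01 in kidney. Mcm3, a subunit of the replicative helicase, read 7.86, 7.97 and 8.02 in tumour at 24 h, against 9.37 and 8.93 at 0 h, and 8.22, 8.63 and 7.85 in kidney at 24 h, against 8.62, 8.21 and 8.42 at 0 h. It fell by 1.20 in tumour and changed by -0.19 in kidney, where the groups overlapped, with a difference of -1.01 (adjusted p = 0.385).

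Of 8 mitosis genes tested, 5 fell in tumour and none changed in kidney. These were Fbxo5, Top2a (-1.84), which untangles DNA, Birc5 (-1.76) and Aurkb (-1.66) of the chromosomal passenger complex, and the kinesin gene Kif18b (-1.32). The median response was -1.45 in tumour and -0.12 in kidney. The filter bears on these counts, since only 8 of 15 measured mitosis genes were tested and all 8 lay above the array medians in tumour at 0 h. Genes that enter through the group where they are high are more likely to show a fall there, so the counts and medians carry no weight for a difference between the tissues. In kidney 6 of the 12 replication genes and 2 of the 8 mitosis genes lay above the array medians at either time. In tumour at 0 h 11 and 8 did. For the genes below the medians in kidney a fall there may not have been readable. Without tumour 0 h replicate 1 none of the replication genes and 1 mitosis gene fell in tumour, with list medians of -0.64 and -1.14.

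**Figure D4:**
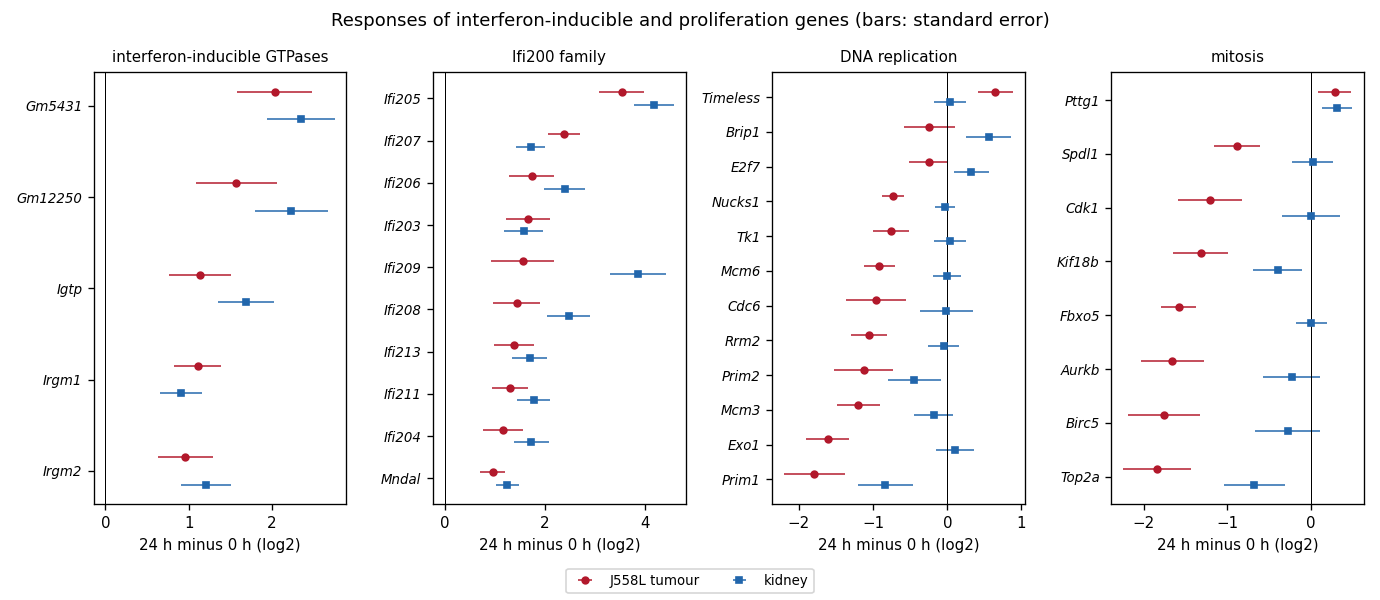
The response, 24 h minus 0 h on the log2 scale, of each tested member of 4 gene lists in tumour endothelium (red circles) and kidney endothelium (blue squares), with bars of 1 standard error. Members of the interferon-inducible lists lie right of 0 in both tissues, with list medians of 1.14 and 1.49 in tumour and 1.69 and 1.75 in kidney. Most replication and mitosis genes lie left of 0 in tumour, where the filter favoured a fall, and near 0 in kidney. Only 6 of the 12 replication and 2 of the 8 mitosis genes lay above the array medians in kidney. For the rest a fall there may not have been readable.

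Of 17 interstitial matrix genes tested, 1 rose in tumour (Timp3, an inhibitor of metalloproteinases, by 1.04) and 5 fell in kidney, Fn1, Prelp, Fbln5, Emid1 and Col13a1. The median response was -0.10 in tumour and -0.29 in kidney, with a median difference of 0.20 and 1 call, Fn1. Prelp, a proteoglycan that anchors basement membranes, read 7.30, 7.39 and 7.55 in kidney at 24 h, against 8.54, 8.62 and 8.49 at 0 h. It fell by 1.14 on the log2 scale in kidney and changed by 0.11 in tumour, below the array medians, with a difference of 1.25 ± 0.35 (adjusted p = 0.143). Of 6 basement membrane genes Col18a1 fell in tumour (-0.97), and Lamb1 (-0.79) and Lama4 (-0.74) fell in kidney, with a median difference of 0.02 and no call. Of 12 tip cell and vessel guidance genes, known from sprouting vessels, 1 fell in tumour and 4 in kidney, Cxcr4 (-1.12), Lama4, Slit3 (-0.84) and Hecw2 (-0.92). Plxnc1 was the 1 member that rose and the 1 with a called difference.

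Some markers of other cells were lower in kidney at 24 h, and others were not. The summed level of 8 pericyte and fibroblast markers in kidney was 9.60 to 9.85 at 24 h and 9.98 to 10.37 at 0 h on the log2 scale, and in tumour 9.26 to 9.56 at 24 h and 9.09 to 9.50 at 0 h. Of these markers Prelp fell in kidney, Rgs5 stood at -0.61 and Des at -0.86, while Col1a1 and Col3a1 lay below the array medians there with changes of -0.11 and -0.01. Dcn went the other way, at 0.65 in kidney, and did not pass the test (adjusted p = 0.546). The summed level of 5 kidney epithelial markers was 9.07 to 9.17 at 24 h and 9.14 to 9.73 at 0 h in kidney, with Fmo1 falling by 0.73 on the log2 scale. The other members did not fall together. Atp1b1 changed by 0.10, and Ggt1 and Slc47a1, which were not tested, averaged 5.87 and 5.45 at 24 h, against 5.44 and 5.13 at 0 h. Slc4a1, also untested, was lower, with an average of 5.60 in kidney at 24 h, against 6.01 at 0 h. The part of such other cells in the kidney responses of Fn1, Lgmn, Pxdn, Mmp11, Vtn and the other matrix genes was not tested.

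Contrasts of IFNγ against none in the other tumours of the study also gave values for the 16 genes. The means of these groups do not enter the difference of responses. Their arrays were in the same fit, though, and entered the spread that decided which genes passed. MCA313 tumours, grown in PIG-Pdgfb-Cre-IFNγ-del mice, in which only endothelial cells carry the receptor, were read 24 h and 48 h after induction against the same 0 h arrays, and 16.113 tumours after 120 h of treatment with IFNγ-competent against IFNγ-deficient T cells. Calls made up 5.14%, 6.57% and 15% of the 2587 genes in these comparisons. Irf4 rose in all of them, by 3.63, 3.25 and 2.17. In MCA313 endothelium it read 8.47 and 8.50 at 24 h and 8.80 and 7.43 at 48 h, against 4.59, 4.31 and 5.67 at 0 h, with every induced array above every 0 h array. In 16.113 endothelium Irf4 read 6.91, 6.69 and 5.84 with competent T cells, against 3.92 to 4.98 with deficient ones.

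Other genes passed in some of these comparisons. Nppc rose in MCA313 by 0.98 at 24 h and 1.23 at 48 h, and Lgmn by 0.77 and 0.89. Trappc10 rose by 0.94 and Fbxo5 fell by 0.97 on the log2 scale at 24 h, while at 48 h they stood at 0.48 and -0.53. In 16.113 Nos2 rose by 0.95, and Exo1 (-1.08), Mmp11 (-0.96) and Pxdn (-0.61) fell. Fn1 stood at 0.16, 0.18 and -0.14, and none of these passed. Eya1, Olfr1396, Dact1, Vtn, Plxnc1 and Tmem200a passed in no comparison with another tumour. The other models hold no kidney arrays, so these values bear on the tumour response alone.

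**Figure D5:**
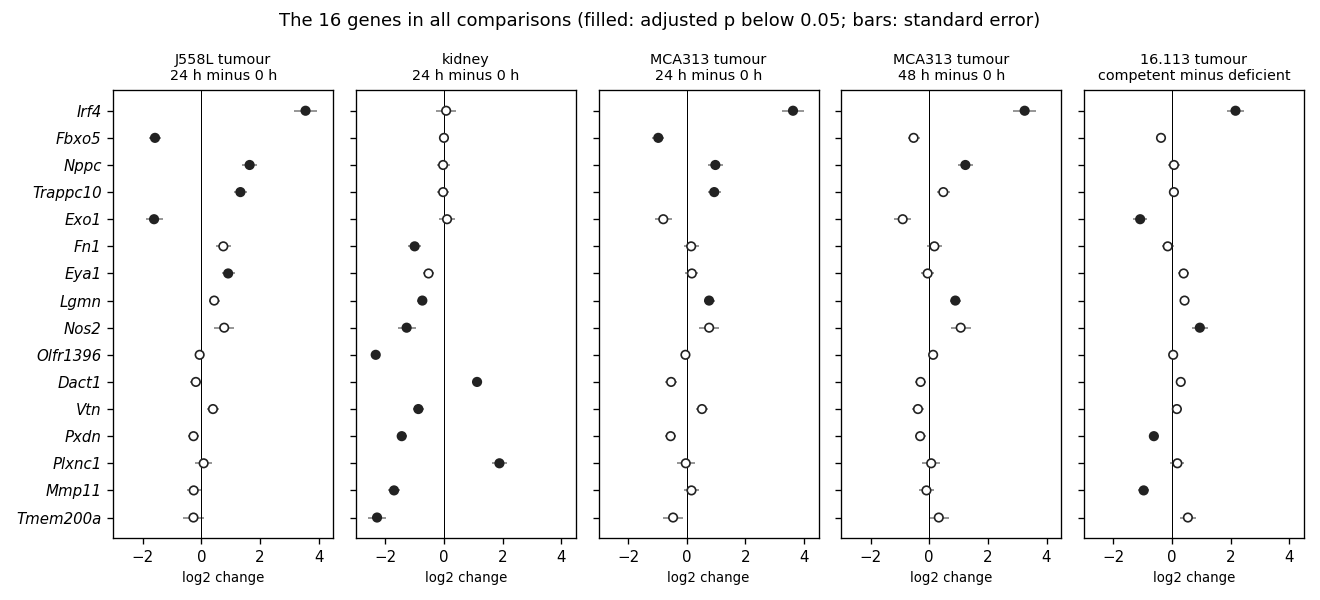
The log2 change ± standard error of the 16 genes in J558L tumour, kidney, MCA313 tumour at 24 h and 48 h (against shared 0 h arrays) and 16.113 tumour with IFNγ-competent minus IFNγ-deficient T cells, with filled points where the adjusted p was below 0.05. Irf4 is filled in all 4 tumour panels, between 2.17 and 3.63, and open in kidney at 0.07.

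Promoters were read from RefSeq on the GRCm38.p6 build, with 12 of the 16 genes matched, to see whether genes that differ carry the elements of the IFNγ response. The 250 bases before each gene start were searched on both strands for GAS, written TTCNNNGAA, and ISRE, a pair of GAAA sites separated by 2 bases of any kind. In all 32851 promoters of that length 7.02% held GAS, 2.98% held ISRE and 9.66% either. Of the 2587 tested genes 2151 had a promoter, and of these 7.11% held GAS, 3.67% ISRE and 10.32% either. Of the 42 genes that rose in both tissues 37 had a promoter, and of these 13 (35.14%) held ISRE and 17 (45.95%) either element. Of the 12 promoters of genes with a called difference 1 held GAS (Olfr1396) and 1 ISRE (Plxnc1). Among genes that rose in tumour and were not called in kidney 0 of 15 promoters held ISRE, and among those that rose in kidney and were not called in tumour 12 of 88 (13.64%) did. A match of letters is a description and not a binding site.

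The 150 bases before the gene start are printed for 2 genes that rose in both tissues (Ifi205, Rsad2), for the kidney riser with ISRE (Plxnc1) and for 3 genes of the tumour response (Irf4, Nppc, Fbxo5), to show the element beside stretches in which these letters do not occur. Each is 5′ to 3′ on the gene's strand, and capitals mark ISRE on either strand. The first base of the match lies at position -134 for Ifi205, -120 for Rsad2 and -118 for Plxnc1, counted back from the gene start. None of the printed matches overlaps another. Positions are chr1:174031756-174031905 on the minus strand for Ifi205, chr12:26456453-26456602 minus for Rsad2, chr10:94944846-94944995 minus for Plxnc1, chr13:30749083-30749232 plus for Irf4, chr1:86670574-86670723 minus for Nppc and chr10:5805466-5805615 minus for Fbxo5.
Ifi205: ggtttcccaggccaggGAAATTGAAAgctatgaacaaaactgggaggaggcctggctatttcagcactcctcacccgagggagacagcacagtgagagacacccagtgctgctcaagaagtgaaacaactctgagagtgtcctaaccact
Rsad2: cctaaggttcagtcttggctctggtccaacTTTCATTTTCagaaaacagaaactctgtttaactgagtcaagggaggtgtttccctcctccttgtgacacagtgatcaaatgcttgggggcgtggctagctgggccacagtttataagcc
Plxnc1: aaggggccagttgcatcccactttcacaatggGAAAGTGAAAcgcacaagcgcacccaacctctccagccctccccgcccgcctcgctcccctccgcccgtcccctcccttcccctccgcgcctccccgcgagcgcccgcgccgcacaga
Irf4: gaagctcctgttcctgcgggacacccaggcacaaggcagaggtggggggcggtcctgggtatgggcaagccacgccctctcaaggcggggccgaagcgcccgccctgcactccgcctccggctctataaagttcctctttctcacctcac
Nppc: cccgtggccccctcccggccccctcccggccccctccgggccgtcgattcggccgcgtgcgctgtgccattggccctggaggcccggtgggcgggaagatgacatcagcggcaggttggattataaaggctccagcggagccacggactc
Fbxo5: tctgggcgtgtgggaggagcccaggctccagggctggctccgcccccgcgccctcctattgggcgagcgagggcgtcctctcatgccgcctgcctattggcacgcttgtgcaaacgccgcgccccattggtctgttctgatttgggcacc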

How the data were processed

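RNA of sorted endothelial cells was amplified and hybridised to Affymetrix arrays, per the labels' protocols. The authors deposited log2 expression values per probe set, and per the submitters' processing notes they used Affymetrix Expression Console and limma. The sources used here do not give the normalization. Exact values shared between arrays of one tissue (1086 to 2650 per pair, at most 2 between tissues) point to separate normalization, and contrasts were therefore formed within a tissue. Of 65535 probe sets 53857 carried 1 symbol, 766 several and 10912 none. Values of all single-symbol probe sets were averaged per gene, on the log2 scale.

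All 26 arrays were fitted in limma 3.58.1 (R 4.3.3) with 9 group means and one spread per gene, and p-values were adjusted by Benjamini-Hochberg over 2587 genes. The script was tested on simulated data. Named were the genes past the test of the difference, the largest of each response kind, up to 4 members of each gene list, and check genes. Others (Cygb, Mcm3, Slfn5, Ifi27, Stat5b and further list members) were chosen after their values were seen. The genes, lists and tests were chosen with earlier results of these data known. Alternatives covered filters, normalization, the summary of probe sets, the variance model, array weights, blocks and each array left out. Replicate numbers were checked as pairs, and tumour and kidney arrays of one number did not deviate together (correlations from -0.065 to 0.040 across genes). Genes outside the table were not analysed here.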

Additional observations from a re-analysis of the deposited data

Results flagged for a closer look

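The difference of responses, tumour minus kidney on the log2 scale, passed its own test for 16 genes. It was positive for Irf4 (3.48), Olfr1396 (2.27), Nos2 (2.05), Tmem200a (2.01), Fn1 (1.75), Nppc (1.68), Eya1 (1.44), Mmp11 (1.44), Trappc10 (1.36), Vtn (1.27), Lgmn (1.18) and Pxdn (1.17). It was negative for Plxnc1 (-1.81), Exo1 (-1.72), Fbxo5 (-1.58) and Dact1 (-1.32). Irf4 and Olfr1396 alone were called in every fit that left out 1 of the 11 arrays. No group held enough arrays for a test of outlying samples.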

How the results depend on the processing

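The sign of the difference was kept for each of the 16 genes in every fit without 1 array. At the brightest probe set it turned for Nppc (-0.16), Vtn (-0.083) and Plxnc1 (0.43). The counts depended on the setting. Against 16 differing genes, the stricter filter gave 7, the brightest probe set 1, the median probe set 2, the average of the brighter probe sets 3, array weights 60, each tissue fitted alone 47, and the filter in both tissues, chosen after seeing the data, 5. Against 103 tumour genes, the brightest probe set gave 23, the median 60, array weights 344, the J558L arrays alone 155 and each tissue alone 202. Against 284 kidney genes, the brightest probe set gave 143 and the median 182. Array weights gave 4 genes past the test in opposite directions (Fn1, Lgmn, Nos2 and Cygb), against 0. Without 1 array the counts were 3 to 16 (difference), 16 to 108 (tumour), 172 to 268 (kidney) and 0 to 1 (opposite). Both quantile normalizations kept 15 of the 16. With the J558L arrays fitted alone 21 genes differed, 11 of them among the 16. The causes were not tested.

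With the replicate number as a block, 3 genes differed, 83 changed in tumour and 271 in kidney. The arrays share only a number, so the block says nothing of a weaker effect. Genes below the array medians limit what could be read, and so do 2 tumour arrays at 0 h.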
